A study of Homo sapiens with 6 samples.

Results

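The genes described here are 44 named genes of S phase and DNA replication. They were taken by name from a list that sets no threshold on a measured value. The list was chosen with earlier results of these data known. All 44 were found among the 67051 gene identifiers of the count tables. They were measured by PRO-seq, a nuclear run-on assay that sequences RNA held by engaged RNA polymerases, so a value stands for ongoing transcription over a gene and not for its mRNA level. The cells were SH-SY5Y, an established human neuroblastoma line, in all libraries. The groups were untreated cells, cells given 0.1 mM MPP+ for 0.5 h and cells given 0.1 mM MPP+ for 24 h, with 2 libraries in each. The labels give no time for the untreated cells. Whether these were kept in culture as long as either treated group is therefore not known. MPP+ is the toxic metabolite of MPTP and is known as an inhibitor of mitochondrial respiratory complex I. Nothing in the labels tells if replicates 1 and 2 were grown as separate cultures. The p-values therefore speak of library-to-library spread, which may be technical.

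DNA replication is prepared in G1, when the origin recognition complex, CDC6 and CDT1 load the MCM helicase onto chromatin. At the start of S phase CDC45 and the GINS complex join the MCM ring to form the active helicase, and primase, the replicative polymerases, the PCNA clamp and its RFC loader then build the new strands. Transcription of many of these genes is known to peak around the G1/S boundary under control of E2F factors, which the RB family of proteins holds back until cyclin E-CDK2 and cyclin D kinases act on them.

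Promoter windows from RefSeq (GRCh38.p14, from 250 bases before to 50 after the gene start) were matched for 37 of the 44 genes; MCM4, MCM5, GINS4, POLD3, RPA2, DSCC1 and CCNE2 had no entry. The words searched, on both strands and with overlapping matches each counted, were E2F core words (TTCCCGC and its relatives TTGGCGC with TTCGCGC and lastly TTGCCGC), the CCAAT box bound by NF-Y, and the CHR element of genes expressed late in the cell cycle (TTTGAA and also its known variant TTCGAA). An E2F core word that starts with TTGG can share these letters with a CCAAT box on the reverse strand. At least 1 E2F core word was present in 28 of the 37 windows (75.7%), against 13.1% of all 27305 windows. A CCAAT box was present in 21 windows (56.8%), against 35.7% of all windows, and a CHR word in 2 windows (5.41%), against 16.6% of all windows. The set of all windows was matched to the members neither for transcription in these cells nor for base composition. A match is a description of the letters and not a binding site. The windows of 6 genes are shown. Of these, POLE, UNG, UHRF1, E2F1 and ORC6 had log2 fold changes of -0.55 to -0.44 at 24 h against untreated. The other, POLE2, had the highest fold change of the tested members at 24 h. CHAF1A, at -0.46, fell in the same range, and its window, with 2 E2F core words and 4 CCAAT boxes, is not shown. The 6 genes were chosen after these values were seen. Capitals mark E2F core words and CCAAT boxes, and adjoining matches run together.
POLE (chr12:132687293-132687592, minus strand): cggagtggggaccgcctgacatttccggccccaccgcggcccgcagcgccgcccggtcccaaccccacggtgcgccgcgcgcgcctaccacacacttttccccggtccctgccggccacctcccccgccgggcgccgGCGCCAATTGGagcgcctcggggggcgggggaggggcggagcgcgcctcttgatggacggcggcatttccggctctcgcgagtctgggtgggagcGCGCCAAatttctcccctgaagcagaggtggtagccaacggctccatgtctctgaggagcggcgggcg
UNG (chr12:109097347-109097646, plus strand): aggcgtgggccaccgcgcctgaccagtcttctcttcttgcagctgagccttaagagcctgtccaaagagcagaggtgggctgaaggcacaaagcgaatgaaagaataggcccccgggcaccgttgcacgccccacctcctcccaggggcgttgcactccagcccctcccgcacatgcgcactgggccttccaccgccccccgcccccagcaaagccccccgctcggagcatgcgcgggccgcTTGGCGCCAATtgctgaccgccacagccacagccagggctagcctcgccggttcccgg
UHRF1 (chr19:4909251-4909550, plus strand): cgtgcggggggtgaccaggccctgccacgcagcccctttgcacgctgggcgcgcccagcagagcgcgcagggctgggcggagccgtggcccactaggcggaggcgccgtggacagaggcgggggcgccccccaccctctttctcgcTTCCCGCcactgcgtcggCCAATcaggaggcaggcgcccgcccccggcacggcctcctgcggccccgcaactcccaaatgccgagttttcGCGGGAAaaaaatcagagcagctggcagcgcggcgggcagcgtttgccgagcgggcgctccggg
E2F1 (chr20:33686336-33686635, minus strand): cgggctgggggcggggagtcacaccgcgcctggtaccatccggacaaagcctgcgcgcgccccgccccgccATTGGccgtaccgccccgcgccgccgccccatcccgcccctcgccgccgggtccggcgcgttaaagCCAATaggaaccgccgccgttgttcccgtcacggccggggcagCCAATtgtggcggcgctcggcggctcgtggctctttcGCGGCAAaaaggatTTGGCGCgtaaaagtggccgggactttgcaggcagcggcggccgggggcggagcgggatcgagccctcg
ORC6 (chr16:46689409-46689708, plus strand): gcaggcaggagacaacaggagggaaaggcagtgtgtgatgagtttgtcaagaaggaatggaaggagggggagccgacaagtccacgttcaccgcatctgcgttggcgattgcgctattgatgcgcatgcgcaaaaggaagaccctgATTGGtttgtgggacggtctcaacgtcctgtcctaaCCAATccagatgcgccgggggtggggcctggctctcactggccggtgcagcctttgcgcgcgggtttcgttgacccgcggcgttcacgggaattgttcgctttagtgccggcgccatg
POLE2 (chr14:49688165-49688464, minus strand): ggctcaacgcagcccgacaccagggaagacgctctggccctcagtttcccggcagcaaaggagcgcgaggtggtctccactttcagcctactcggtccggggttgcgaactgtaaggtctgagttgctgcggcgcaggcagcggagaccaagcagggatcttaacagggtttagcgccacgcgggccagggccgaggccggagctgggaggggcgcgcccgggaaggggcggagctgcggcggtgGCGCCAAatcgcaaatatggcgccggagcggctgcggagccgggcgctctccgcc
The windows of POLE, UNG, UHRF1 and E2F1 each hold 2 E2F core words, that of POLE2 holds 1 and that of ORC6 holds 0.

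The libraries held between 5983066 and 11707612 assigned counts, and the 44 genes took between 0.329% and 0.426% of them. Markers of adrenergic neuroblastoma summed to between 2599 and 3524 CPM (read counts scaled by TMM to library size), with 10 of 11 passing the filter on low counts, although TH, the dopamine-synthesis enzyme, had at most 1.62 CPM. Fibroblast markers summed to between 152 and 185 CPM, epithelial markers to between 164 and 204 CPM and immune markers to between 3.90 and 5.80 CPM. PDGFRB alone had between 101 and 120 CPM, and the other fibroblast markers had at most 18.6 CPM each. EPCAM alone had between 126 and 175 CPM, and the other epithelial markers had at most 26.7 CPM each. Of the 44 genes, 42 passed the filter and were tested with edgeR. GINS4, a subunit of the GINS complex, had 0 counts in all 6 libraries, which allows a share of up to between 2.56e-05% and 5.01e-05% of the assigned counts, and POLA2, the second subunit of DNA polymerase alpha, had 1 count. In GENCODE 29 other genes cover 68.8% of the span of GINS4 and 99.6% of that of POLA2. How the counting treated overlapping genes and strand is not given in the sources used here, so low values of overlapped genes, FEN1 (96.2% covered) among them, are uncertain.

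The libraries of a group were not equal in these genes. The median deviation of the 42 genes from their own mean over all libraries, on the log2 scale, was 0.18 and -0.04 in untreated replicates 1 and 2, 0.13 and 0.02 in the 0.5 h replicates, and -0.07 and -0.19 in the 24 h replicates. Replicate 1 lay above replicate 2 in all 3 groups for 24 of the 42 genes, against 21.7% of all genes tested, and below it in all 3 groups for 0 genes, against 22.3%. The gap was wide for CDC6, which loads the MCM ring, at 0.87, 0.57 and 0.46 on the log2 scale in the untreated, 0.5 h and 24 h groups. It was 0.59, 0.51 and 0.63 for MCM7, a subunit of that ring, and 0.42, 0.79 and 0.47 for PCNA, the sliding clamp.

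**Figure D1:**
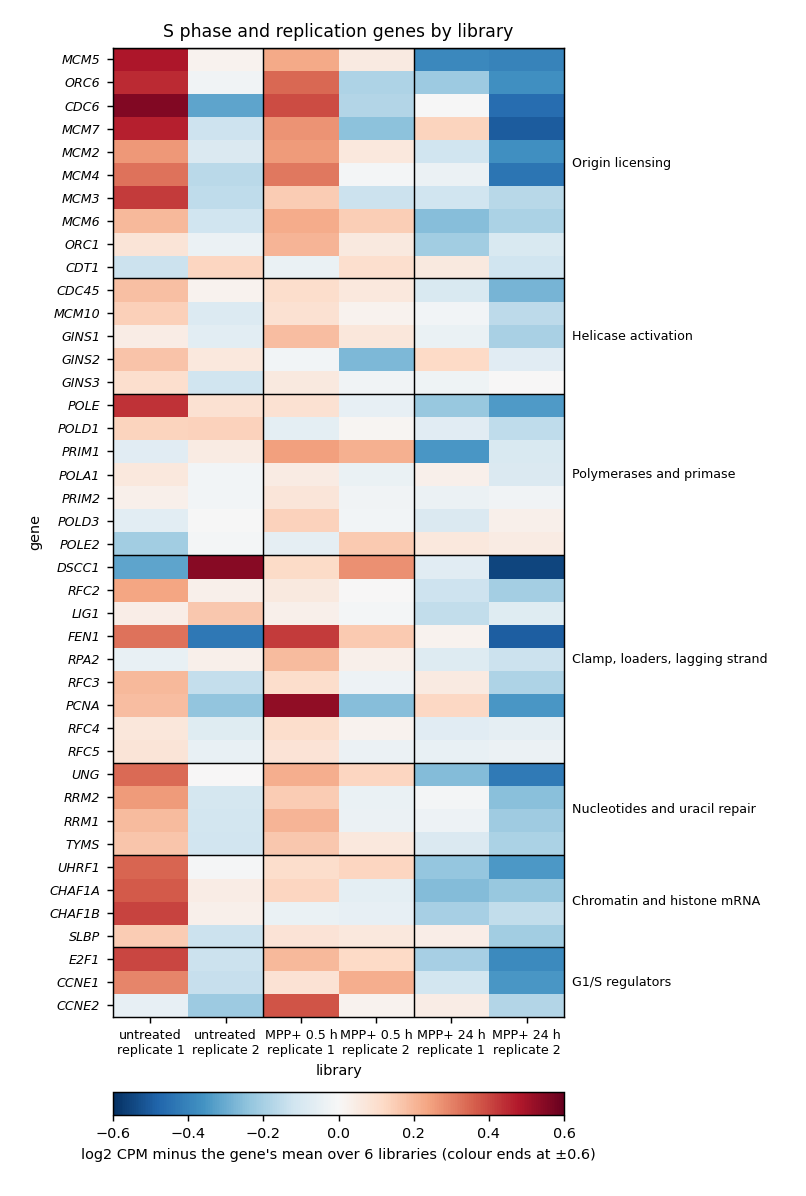
Log2 deviation of each of the 42 tested replication genes (rows, grouped by role) from its own mean over the 6 libraries (columns, by group and replicate). Most genes lie above their mean in untreated replicate 1 and 0.5 h replicate 1 (35 and 37 of 42 genes), and below it in 24 h replicate 2 (39 of 42 genes).

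After 0.5 h of MPP+ the values of the replication genes scattered on both sides of those in untreated cells. The median log2 fold change of the 42 genes against untreated cells was 0.01, with 18 genes below 0 and a range of -0.27 to 0.35. edgeR called 0 of the 42 genes at an adjusted p under 0.05, as did DESeq2, against 0.0735% of all genes tested called lower and 0% called higher. At an unadjusted p under 0.05, 0 genes were lower (1.41% of all genes) and 1 was higher (1.05% of all genes). The libraries of both groups did not overlap for 5 genes that were lower at 0.5 h (14.4% of all genes) and 3 that were higher (12.9% of all genes). The gene with the smallest p was CCNE2, which encodes cyclin E2, an activator of CDK2 at the G1/S boundary. It had 59.4 and 46.3 CPM at 0.5 h, against 44.2 and 39.2 CPM in untreated cells, a log2 fold change of 0.35 ± 0.15 (SE, n = 2 each, edgeR adjusted p = 1). GINS2, another GINS subunit, had 69.9 and 58.6 CPM at 0.5 h, against 79.5 and 73.8 CPM in untreated cells, a log2 fold change of -0.25 ± 0.12 (SE, n = 2 each, edgeR adjusted p = 1). The position of the list depended on the untreated libraries: without untreated replicate 1 the median was 0.14 with 8 genes below 0, and without untreated replicate 2 it was -0.10 with 32 genes below 0. The numbers of genes without overlap were then 7 lower (31.6% of all genes) and 25 higher (31.1%) without untreated replicate 1, and 26 lower (34.8%) and 8 higher (36.3%) without untreated replicate 2.

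**Figure D2:**
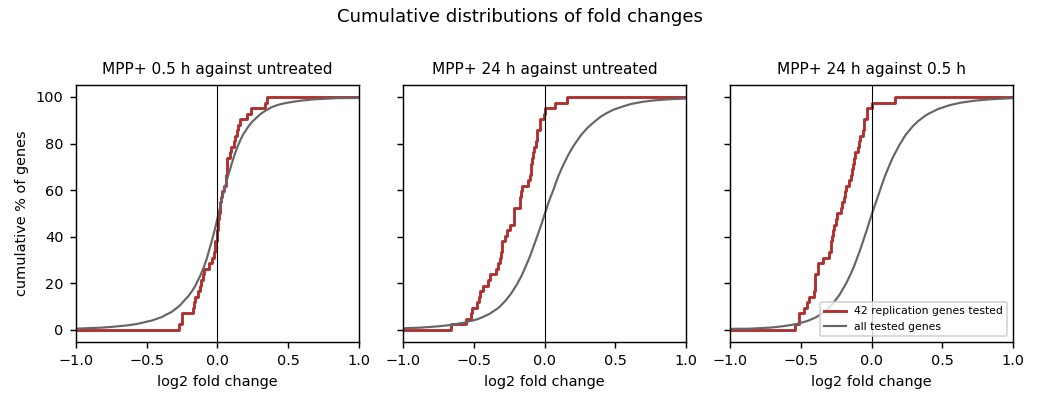
Cumulative percentage of genes (vertical axis) against log2 fold change (horizontal axis) for the 42 tested replication genes (red) and all 23133 tested genes (grey), in the 3 comparisons. At 0.5 h against untreated both curves cross 0 near the middle, while in both comparisons of 24 h cells the red curve lies to the left of the grey one.

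After 24 h of MPP+ most replication genes had lower values than in untreated cells, by small amounts. None passed the test in the main fit, which was by group alone with low counts filtered out. The median log2 fold change of the 42 genes was -0.21, or -13.8%, against 0.00 over all genes tested, with 39 of 42 genes below 0 against 49.6% of all genes. The range was -0.66 to 0.16. edgeR called 0 of the 42 genes, with a smallest adjusted p of 0.383, and DESeq2 also called 0, against 0.0692% of all genes called lower and 0% called higher by edgeR. At an unadjusted p under 0.05, 12 of the 42 genes were lower, against 4.09% of all genes, and 0 were higher, against 4.01%. The libraries did not overlap for 18 genes that were lower at 24 h, against 18.5% of all genes, and for 1 that was higher, POLE2, against 18.8%. In cells measured in bulk, fewer cells in S phase and less transcription per cell cannot be told apart.

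The size of this shift depended on which libraries were kept. Without untreated replicate 1 the median at 24 h was -0.05, and 6 genes were lower at an unadjusted p under 0.05 (2.67% of all genes). Without 24 h replicate 2 the median was -0.13 with 5 such genes (2.38%), without untreated replicate 2 it was -0.30 with 18 (5.42%), and without 24 h replicate 1 it was -0.27 with 12 (2.46%). Groups that did not overlap and were lower at 24 h numbered 37 without untreated replicate 2 (36.4% of all genes), 35 without 24 h replicate 1 (33.5%), 20 without untreated replicate 1 (34.2%) and 19 without 24 h replicate 2 (31.8%), where a group of 1 library overlaps less easily. When genes with low counts were not filtered out, edgeR called 5 genes lower at 24 h, namely CHAF1A, MCM5, ORC6, POLE and UHRF1, and 0 higher, against 0.327% of all genes called lower and 0.370% called higher. With the replicate number as a further term, a pairing that the labels do not explain, edgeR called 11 genes lower and 0 higher, against 1.66% and 1.30% of all genes.

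The licensing factors, which load the helicase, had a median log2 fold change of -0.32 at 24 h. Of these genes 10 of 10 were below 0 (49.6% of all genes), 3 of them at an unadjusted p under 0.05 (4.09% of all genes). MCM5 (ENSG00000100297.16, hg38 chromosome 22, 35400063 to 35425430, plus strand), a subunit of the MCM ring, had 111 and 80.0 CPM in untreated cells, 92.4 and 82.0 CPM at 0.5 h, and 60.3 and 59.7 CPM at 24 h. Both 24 h libraries lay below the other 4, and its log2 fold change of -0.66 ± 0.15 (SE, n = 2 each, edgeR adjusted p = 0.383) had the smallest p of the 42 genes. MCM6, another subunit of the ring, had 82.0 and 66.0 CPM in untreated cells, 83.6 and 79.3 CPM at 0.5 h, and 60.1 and 62.8 CPM at 24 h, again with both 24 h libraries below the rest. MCM7 had 313 and 208 CPM in untreated cells, 272 and 191 CPM at 0.5 h, and 248 and 160 CPM at 24 h, so its groups overlapped, and the replicates of each group differed more than the group means. ORC6, a subunit of the origin recognition complex, had 90.7 and 65.3 CPM in untreated cells, 84.5 and 58.3 CPM at 0.5 h, and 57.1 and 51.3 CPM at 24 h. Its log2 fold change at 24 h against untreated was -0.52 ± 0.20 (SE, n = 2 each, edgeR adjusted p = 0.595). The values of CDT1, the licensing factor that geminin inhibits, overlapped between groups, with 51.7 and 61.9 CPM in untreated cells, 55.0 and 60.7 CPM at 0.5 h, and 58.9 and 52.1 CPM at 24 h. The other licensing genes, MCM2, MCM3, MCM4, CDC6 and ORC1, had log2 fold changes of -0.39 to -0.17 at 24 h, and only MCM2 (-0.33) of these had an unadjusted p under 0.05.

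**Figure D3:**
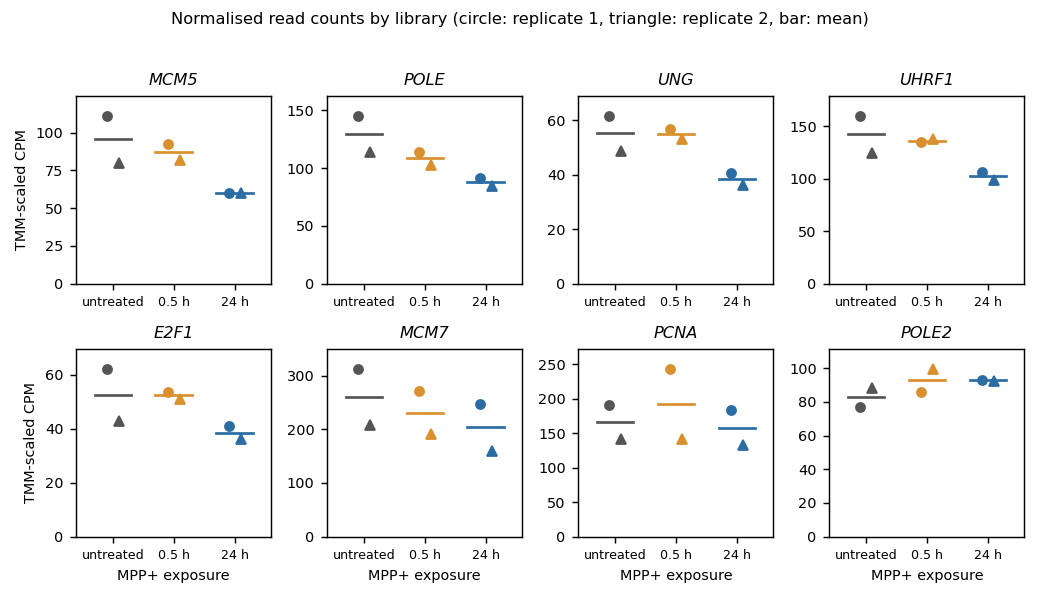
Normalised read counts (TMM-scaled CPM, vertical axis from 0) in each library for MCM5, POLE, UNG, UHRF1, E2F1, MCM7, PCNA and POLE2, by MPP+ exposure; circles are replicate 1, triangles replicate 2 and bars the mean of 2 libraries. MCM5, POLE, UNG and UHRF1 have both 24 h libraries below the other 4, while the groups of PCNA and MCM7 overlap.

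The helicase activation genes had a median of -0.10 at 24 h, with 5 of 5 tested genes below 0 (49.6% of all genes). CDC45, which joins MCM and GINS in the active helicase, had 110 and 98.4 CPM in untreated cells, 104 and 102 CPM at 0.5 h, and 91.0 and 80.0 CPM at 24 h. Both 24 h libraries were the lowest, with a log2 fold change of -0.28 ± 0.11 against untreated (SE, n = 2 each, edgeR adjusted p = 0.595). GINS2 had 76.9 and 67.5 CPM at 24 h, against 79.5 and 73.8 CPM in untreated cells, so the groups overlapped. MCM10, which helps activate the helicase, GINS1 and GINS3 had log2 fold changes of -0.11, -0.10 and, to 2 decimals, 0.00.

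Among the polymerase and primase genes the median was -0.05, with 5 of 7 tested genes below 0 (49.6% of all genes). The members differed among themselves. POLE (ENSG00000177084.18, hg38 chromosome 12, 132623753 to 132687365, minus strand), the catalytic subunit of the leading-strand polymerase epsilon, had 145 and 114 CPM in untreated cells, 114 and 103 CPM at 0.5 h, and 91.4 and 84.7 CPM at 24 h. Its log2 fold change at 24 h was -0.55 ± 0.13 (SE, n = 2 each, edgeR adjusted p = 0.407). POLE2, the second subunit of the same enzyme, had 77.2 and 88.5 CPM in untreated cells, 85.9 and 99.6 CPM at 0.5 h, and 93.1 and 92.4 CPM at 24 h. Of the 42 replication genes tested, only POLE2 had both 24 h libraries above both untreated libraries. Its log2 fold change was 0.16 ± 0.11 (SE, n = 2 each, edgeR adjusted p = 0.767). PRIM1, the catalytic primase subunit, had 18.8 and 20.4 CPM in untreated cells, 23.4 and 22.9 CPM at 0.5 h, and 15.4 and 18.5 CPM at 24 h, and other genes cover 48.9% of its span. POLA1, the catalytic subunit of polymerase alpha, had 181 and 171 CPM in untreated cells, 179 and 168 CPM at 0.5 h, and 176 and 162 CPM at 24 h, with overlapping groups throughout. POLD1, the catalytic subunit of polymerase delta, had a log2 fold change of -0.25 ± 0.10 (SE, n = 2 each), and POLD3, another subunit of that enzyme, and PRIM2, the regulatory primase subunit, had 0.00 and -0.04, also on the log2 scale.

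The clamp, clamp loader and lagging-strand genes had a median of -0.10 at 24 h, with 9 of 9 tested genes below 0 (49.6% of all genes). At an unadjusted p under 0.05, 1 was lower (4.09% of all genes). That gene was RFC2, a subunit of the loader, with 95.3 and 82.4 CPM in untreated cells, 84.1 and 80.9 CPM at 0.5 h, and 74.2 and 70.0 CPM at 24 h. Its log2 fold change was -0.30 ± 0.11 (SE, n = 2 each, edgeR adjusted p = 0.586). PCNA had 191 and 142 CPM in untreated cells, 243 and 141 CPM at 0.5 h, and 183 and 132 CPM at 24 h, and the groups overlapped. RPA2, a subunit of the single-strand binding protein RPA, had 64.8 and 68.5 CPM in untreated cells, 76.5 and 68.4 CPM at 0.5 h, and 63.4 and 61.2 CPM at 24 h, with both 24 h libraries the lowest. Of the rest, RFC3, RFC4 and RFC5 of the loader had log2 fold changes of -0.09, -0.06 and -0.06, LIG1, the ligase that joins Okazaki fragments, had -0.21, and FEN1, the flap nuclease, had -0.18. DSCC1, a subunit of an alternative clamp loader, had a value of -0.48 with a standard error of 0.32 on at most 11.7 CPM in a library.

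The nucleotide supply and uracil repair genes had a median of -0.19 at 24 h, with 4 of 4 below 0 (49.6% of all genes). UNG (ENSG00000076248.11, hg38 chromosome 12, 109097574 to 109110992, plus strand), the glycosylase that removes uracil from DNA, had 61.6 and 48.8 CPM in untreated cells, 56.8 and 53.2 CPM at 0.5 h, and 40.6 and 36.2 CPM at 24 h. Both 24 h libraries lay below the other 4, with a log2 fold change of -0.52 ± 0.14 (SE, n = 2 each, edgeR adjusted p = 0.508). RRM2, the regulated subunit of ribonucleotide reductase, had 463 and 361 CPM in untreated cells, 432 and 377 CPM at 0.5 h, and 384 and 326 CPM at 24 h. The groups of RRM2 overlapped, and other genes cover 81.0% of its span. TYMS, the thymidylate synthase, had 39.7 and 32.6 CPM in untreated cells, 39.6 and 36.9 CPM at 0.5 h, and 33.3 and 31.0 CPM at 24 h. Its 24 h libraries overlapped the untreated ones and lay below both 0.5 h libraries. RRM1, the large subunit of ribonucleotide reductase, had a log2 fold change of -0.16.

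The chromatin genes had a median of -0.43 at 24 h, with 4 of 4 below 0 (49.6% of all genes). At an unadjusted p under 0.05, 3 were lower (4.09% of all genes). UHRF1 (ENSG00000276043.5, hg38 chromosome 19, 4903080 to 4962154, plus strand), which brings DNMT1 to newly replicated DNA, had 160 and 125 CPM in untreated cells, 135 and 138 CPM at 0.5 h, and 107 and 99.0 CPM at 24 h. Its log2 fold change was -0.46 ± 0.13 (SE, n = 2 each, edgeR adjusted p = 0.522). CHAF1A, the large subunit of the histone chaperone CAF-1, had 156 and 124 CPM in untreated cells, 132 and 116 CPM at 0.5 h, and 101 and 103 CPM at 24 h, again with both 24 h libraries the lowest. CHAF1B, the middle subunit of CAF-1, had 36.1 and 27.8 CPM in untreated cells, 26.5 and 26.3 CPM at 0.5 h, and 23.7 and 24.5 CPM at 24 h, so that its 0.5 h libraries also lay below the untreated ones. SLBP, which binds the stem-loop of replication-dependent histone mRNAs, had a log2 fold change of -0.09 ± 0.13 (SE, n = 2 each, edgeR adjusted p = 0.904).

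Of the 3 regulators, E2F1, an activator of G1/S genes, had 62.1 and 42.9 CPM in untreated cells, 53.7 and 51.0 CPM at 0.5 h, and 40.9 and 36.0 CPM at 24 h. Its 24 h libraries lay below the other 4, with a log2 fold change of -0.44 ± 0.17 (SE, n = 2 each, edgeR adjusted p = 0.595). CCNE2 had 47.0 and 40.4 CPM at 24 h, which overlapped the untreated libraries. CCNE1, which encodes cyclin E1, had 20.9 and 15.5 CPM in untreated cells, 18.1 and 19.9 CPM at 0.5 h, and 15.8 and 13.3 CPM at 24 h.

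**Figure D4:**
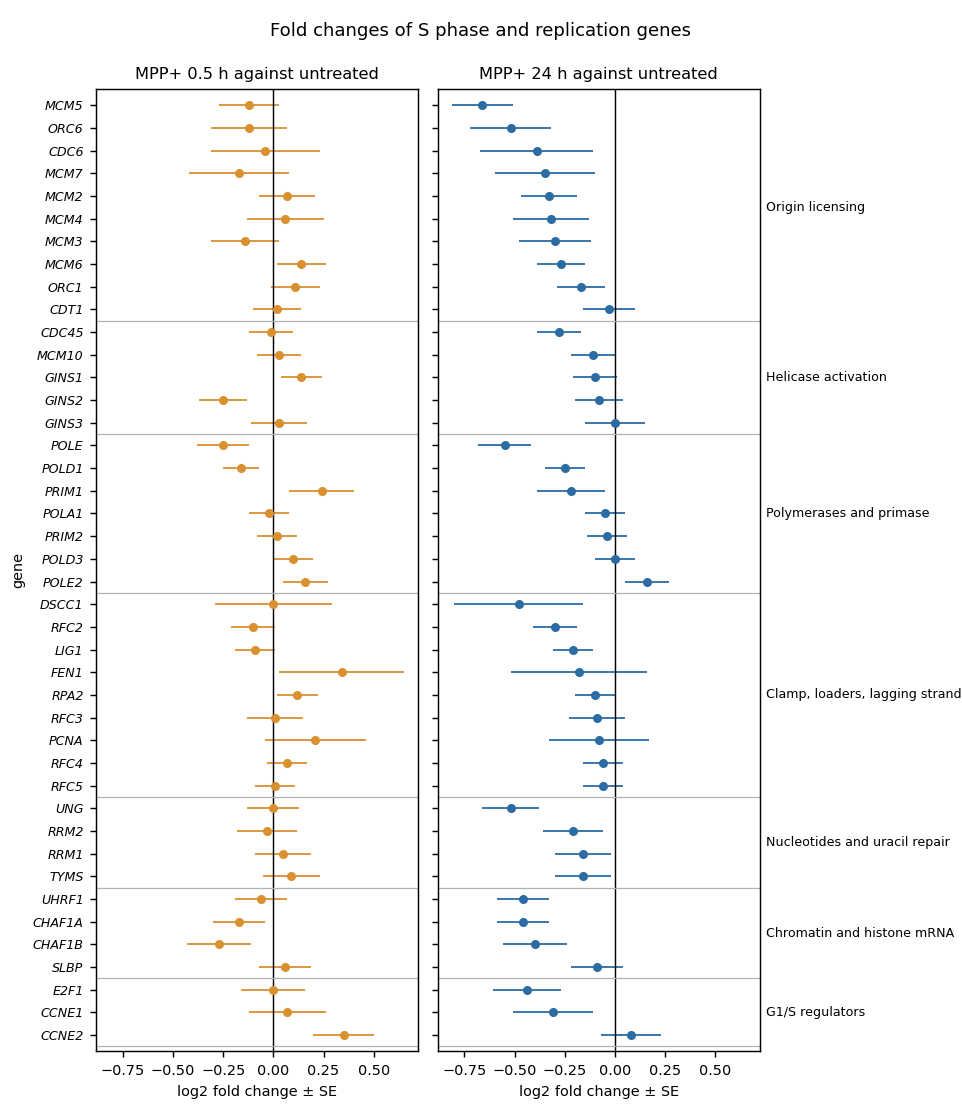
Log2 fold change with its standard error for each of the 42 tested genes, grouped by role, in the comparisons of MPP+ 24 h with untreated cells and MPP+ 0.5 h with untreated cells. At 24 h 39 of 42 points lie below 0, with MCM5 the lowest at -0.66, and at 0.5 h 18 of 42 points do.

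In 24 h cells against 0.5 h cells, a comparison that shares its 24 h libraries with the one above, the median log2 fold change was -0.23, or -14.8%, with 40 of 42 genes below 0 and a range of -0.54 to 0.17. edgeR called 0 of the 42 genes and DESeq2 also 0, against 0% of all genes called in either direction. With no filter on low counts edgeR called 1 gene lower, MCM5, and 0 higher, against 0.125% and 0.0826% of all genes. With the replicate number as a further term it called 8 lower and 0 higher, against 1.28% and 0.501% of all genes. At an unadjusted p under 0.05, 11 genes were lower (3.62% of all genes) and 0 were higher (2.80%). The libraries did not overlap for 27 genes that were lower at 24 h (19.0% of all genes) and for 0 that were higher (19.4%). MCM5 had a log2 fold change of -0.54 ± 0.15 (SE, n = 2 each, edgeR adjusted p = 0.754), UNG had -0.52 and E2F1 -0.44 in the same comparison. Leaving out 0.5 h replicate 1 gave a median of -0.13 with 4 genes lower at an unadjusted p under 0.05 (2.83% of all genes), and leaving out 24 h replicate 2 gave -0.16 with 4 (2.06%). Without 0.5 h replicate 2 the median was -0.30 with 15 such genes (2.78%), and without 24 h replicate 1 it was -0.31 with 9 (2.15%). Both 24 h libraries lay below all 4 others for 18 of the 42 genes, against 10.4% of all genes. They lay above all 4 others for 0 genes, against 10.4%. Both also lay below all 4 others for 10 of 37 other replication genes, 8 of 26 G1/S regulators and 4 of 33 G2 and mitosis genes. At 24 h against 0.5 h these lists, described below, had 28, 21 and 24 genes below 0 (49.5% of all genes). Their groups lower at 24 h without overlap numbered 21, 12 and 6 (19.0% of all genes).

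Lists of other genes around the same steps had medians nearer to 0 at 24 h against untreated cells, and edgeR called 0 genes of each. Of 37 other replication genes tested, 24 were below 0 (49.6% of all genes), with a median of -0.10. At an unadjusted p under 0.05, 4 were lower (4.09% of all genes) and 0 higher (4.01%). Groups did not overlap for 12 that were lower (18.5% of all genes) and 2 that were higher (18.8%). POLD2, a subunit of polymerase delta, had 75.5 and 75.4 CPM in untreated cells, 73.2 and 79.8 CPM at 0.5 h, and 60.2 and 60.9 CPM at 24 h. POLE3, a small subunit of polymerase epsilon, had a log2 fold change of -0.59 ± 0.24 on at most 7.86 CPM in a library. Of 26 regulators of the E2F, RB and G1/S network tested, 20 were below 0, with a median of -0.09. At an unadjusted p under 0.05, 5 of these regulators were lower and 1 higher, and groups did not overlap for 9 lower and 2 higher. Among the 26 regulators CDKN1A, which encodes the CDK inhibitor p21, had 39.0 and 51.4 CPM in untreated cells, 48.2 and 45.0 CPM at 0.5 h, and 57.1 and 66.2 CPM at 24 h. Its fold change against untreated was 0.44 ± 0.15 on the log2 scale (SE, n = 2 each, edgeR adjusted p = 0.563). Its 24 h libraries lay above the other 4. MYBL2, a transcription factor of dividing cells, had a log2 fold change of -0.52 ± 0.17 (SE, n = 2 each, edgeR adjusted p = 0.553), and RBL1, the RB relative p107, had -0.27. Of 33 G2 and mitosis genes tested, 20 were below 0, with a median of -0.04. At an unadjusted p under 0.05, 1 of them was lower and 0 higher, and groups did not overlap for 7 lower and 0 higher. INCENP, AURKB and CDCA8, all of the chromosomal passenger complex, had log2 fold changes of -0.30, -0.33 and -0.14. Whether the medians of these lists differ from that of the 42 genes was not tested. The 42 genes and these lists were chosen with earlier results of these data known. Their medians therefore cannot show that the shift is particular to the 42 genes.

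The fold changes were also set beside features that the list did not use. Genes with an E2F core word in the promoter window had a median log2 fold change of -0.21 at 24 h over 27 tested genes, and those without one had -0.21 over 9. With a CCAAT box the median was -0.27 over 21 genes, and without one -0.16 over 15. The 5 genes with a span over 100 kb (GINS3, POLA1, POLD3, PRIM2 and RFC3) had log2 fold changes of -0.09 to 0.00 at 24 h, with a median of -0.04, and the other 37 had a median of -0.25. Over the 42 genes Spearman's rho between span and fold change at 24 h against untreated was 0.18. Over the 22341 tested genes with a GENCODE 29 span it was 0.06. At 24 h against 0.5 h these values were 0.34 and 0.10, and at 0.5 h against untreated they were -0.08 and -0.06. In each comparison the genes share the same 4 libraries, so these are descriptions only. The limit of 100 kb was chosen after the values were seen.

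**Figure D5:**
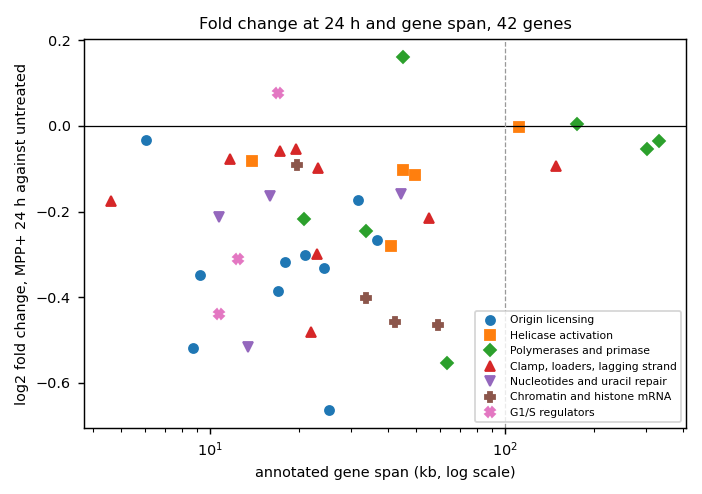
Log2 fold change at MPP+ 24 h against untreated (vertical axis) and annotated gene span in kb (horizontal axis, log scale) for the 42 tested genes, with a symbol for each role and a dashed line at 100 kb. The 5 genes over 100 kb lie between -0.09 and 0.00, and the shorter genes spread from -0.66 to 0.16.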

How the data were processed

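PRO-seq counts from 6 libraries of SH-SY5Y cells were used. Per the submitters' processing notes, the build was hg38, and featureCounts 2.0.1, Bowtie2 2.4.2, cutadapt 1.16.5, SAMtools 1.13, DESeq2 2.11.40.6 and deepTools 3.5.1.0.0 are named. The deposited files hold raw counts per gene, not normalised. The authors' deposited tables give a log2 fold change, a test statistic (a score) and a p-value with its adjusted p-value for 24 genes at 24 h and 17 at 0.5 h, and hold 0 of the 44 genes. Strand handling, counted features, multimapping and annotation release were not given in the sources used here.

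Members, other lists and markers were chosen with earlier results of these data known. Symbols came from a gene name table or, failing that, GENCODE 29. Low counts were removed with filterByExpr, leaving 23133 genes. Counts were scaled by TMM and fitted with edgeR 4.0.16 (R 4.3.3) quasi-likelihood over the 6 libraries with a mean for each group (3 residual degrees of freedom, 6.34 prior degrees of freedom, common biological coefficient of variation 0.113). Two-sided p-values from the quasi-likelihood F test were adjusted over every tested gene (Benjamini-Hochberg), and genes under 0.05 were called. Log2 fold changes and SE come from this fit, and CPM values are TMM-scaled.

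Values in every library are given, in each role, for the gene with the smallest unadjusted p in each comparison and the gene with the highest mean CPM; of each other list, up to 3 genes with the smallest p at 24 h against untreated are named, except for an item that is not reported here. Library values of other genes (ORC6, CDT1, POLE2, CHAF1A and CCNE1) were added after they were seen. The fit was tested on simulated data. Alternatives were DESeq2 1.42.0, library size alone or upper-quartile scaling, a mean of at least 50 counts or no filter, a fit of only the groups compared, a replicate block and leaving out each library. Library totals ranged from 5983066 to 11707612 counts, and floors of 3 counts cover counting error only.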

Additional observations from a re-analysis of the deposited data

How the results depend on the processing

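The median of the 42 genes and the number below 0 were computed again under each alternative. Leaving out single libraries gave medians of -0.10 to 0.14 at 0.5 h, with 8 to 32 genes below 0, and of -0.30 to -0.05 at 24 h against untreated. Over all genes, edgeR called 17 at 0.5 h, 16 at 24 h and 0 in 24 h against 0.5 h; leaving out single libraries gave 9 to 15 and 8 to 13 in the comparisons with untreated cells. DESeq2 called 30 genes at 24 h. With no filter on low counts edgeR tested 35125 genes and called 66, 245 and 73 of them. Of the replication genes it called 5 lower at 24 h against untreated (0.327% of all genes). At 24 h against 0.5 h it called 1 lower, MCM5 (0.125% of all genes). The cause was not tested. Of the 42 genes, 29 changed sign under at least 1 alternative at 0.5 h, 15 at 24 h against untreated and 7 at 24 h against 0.5 h. Where a library is left out, the lone library of its group is assumed to vary like the other groups.

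The labels give every group replicates 1 and 2 but no shared culture or day. Deviations of same-numbered libraries from their group means correlated at 0.328, 0.293 and 0.312 over 23133 genes. A fit with the replicate number as a block called 57 genes at 0.5 h, 685 at 24 h against untreated and 412 at 24 h against 0.5 h. Of the replication genes it called 11 lower at 24 h against untreated and 8 lower at 24 h against 0.5 h. Of all genes it called 1.66% and 1.28% lower in these comparisons. The 11 genes were CDC6, CHAF1A, E2F1, MCM2, MCM4, MCM5, MCM7, ORC6, POLE, UHRF1 and UNG. The 8 genes were E2F1, MCM2, MCM4, MCM5, MCM6, ORC6, UHRF1 and UNG.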
